A study of Homo sapiens with 5 samples.

Results

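Immediate early genes were followed one by one in HCT116 cells, a human colorectal carcinoma line, after knockdown of ELK4. The members were 37 genes taken by symbol from the 20026 genes listed for every sample: the FOS, JUN, EGR, IER, NR4A and ZFP36 families and other fast serum-response genes. Members were taken by name and not by a cut-off on expression, though the list was drawn up with earlier results of these data known, and 32 of the 37 reached the level at which genes were tested, among 10780 genes tested in all. Poly(A)-selected RNA was sequenced from 5 samples, 2 infected with lentivirus carrying the pLKO.1 vector (pLKO_1 and pLKO_2) and 3 infected with the same vector carrying an ELK4 hairpin, named shELK4_1, shELK4_2 and shELK4_3. The hairpins differ, so each hairpin is 1 sample and none has a replicate of its own. All cells were selected with puromycin and grown in medium with fetal bovine serum. The sources used here name neither a serum step nor a harvest time for these samples, so the levels are those of growing cultures. The expression of any hairpin and the loss of ELK4 cannot be told apart with these controls. Nothing states that samples of a group came from separate cultures, so the p-values measure only the spread between these samples.

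Immediate early genes are transcribed within minutes of a growth signal, without new protein having to be made first. Many encode transcription factors, such as the FOS and JUN proteins that pair as AP-1, and many of their mRNAs are short-lived because AU-rich elements mark them for decay. ELK4 is a ternary complex factor of the ETS family. Ternary complex factors bind beside serum response factor (SRF) at a pair of neighbouring motifs, an ETS core and a CArG box, and are activated by MAP kinases. In colorectal carcinoma cells the ERK pathway that feeds into these genes is often active without added serum.

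The promoter sequences of 4 members are shown because they hold CArG boxes, the motif of SRF (EGR1, EGR2), or lie before the 2 members that differed most from the controls (JUND, IER5L). They are RefSeq sequences on GRCh38.p14, written 5′ to 3′ on the strand of the gene, with positions counted from the transcription start (1 of several starts in EGR2) and 10 bases on either side of the motifs in capitals. Capitals mark matches to a CArG box in EGR1 and EGR2, to the GC box GGGGCGGGG in JUND and IER5L, and to the cAMP response element TGACGTCA in JUND. A second GC box of JUND, read as CCCCGCCCC at −112, lies outside the stretch shown.
EGR1, chr5:138465364-138465415, + strand, bases −115 to −64: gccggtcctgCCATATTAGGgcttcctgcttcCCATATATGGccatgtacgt
EGR2, chr10:62816418-62816447, − strand, bases −81 to −52: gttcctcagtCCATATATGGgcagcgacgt
JUND, chr19:18281805-18281871, − strand, bases −249 to −183: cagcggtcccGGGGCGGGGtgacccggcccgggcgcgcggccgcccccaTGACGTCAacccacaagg
IER5L, chr9:129178294-129178322, − strand, bases −61 to −33: cttctcatgtGGGGCGGGGcccgggcacc
Windows of 250 bases before to 50 after the start were found for 28 of the 37 members. These members had 37 windows, as some have more than 1 start. No window was found for FOSL1, EGR3, IER3, NR4A2, MYC, ZFP36L2, ARC, MAFK or TRIB1. A CArG box was present in 1.29% of all 35116 windows on GRCh38.p14 and in 2 of the 37 member windows. These were in EGR1, which holds a pair of them, and EGR2. Bases farther upstream were not searched, so a missing match does not mean that FOS or another member lacks the motif there. The ETS core CCGGAA, read on both strands, was in 17.2% of all windows and in 7 of the 37 member windows. These came from 7 members (FOSB, IER2, IER5, NR4A1, MAFF, SGK1 and AREG). The cAMP response element was in 1.85% of all windows and in 5 of the 37 member windows, those of JUND, ZFP36L1, DUSP1, MAFF and AREG. The GC box, read on both strands as CCCCGCCCC or GGGGCGGGG, was in 15.7% of all windows and in 12 of the 37 member windows. These came from 11 members: JUND, IER2, IER5L, ZFP36, MAFF, CSRNP1, DUSP2, EGR2, KLF2, NFIL3 and SGK1. A match describes letters in these windows, not a bound site.

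Expression is given as FPKM, a count of sequenced fragments scaled to transcript length and to the mapped reads of the sample, so it is a level per length. The FPKM values summed to between 309153 and 319885 per sample. The steps between low values put the depth of the other samples at 0.895 to 0.963 of that of pLKO_1, and the absolute depth is unknown. ELK4 had 8.63 and 7.60 FPKM in the pLKO samples and 3.14, 2.82 and 2.44 FPKM in shELK4_1, shELK4_2 and shELK4_3. All 3 knockdown samples lay below both controls, and the mean was 34.5% of the control mean (log2 fold change −1.26, standard error 0.12, adjusted p = 0.029 from limma). With 1 sample left out at a time, the ELK4 log2 fold change ranged from −1.34 to −1.18. With both controls kept, its limma adjusted p exceeded 0.05 without shELK4_1 (0.0752) or shELK4_3 (0.0780). Without pLKO_1 or pLKO_2 only 1 control is left, so just the log2 fold change is given there (−1.18 and −1.34). Of the markers of colon epithelium, EPCAM was at 118 to 166 FPKM, CDH1 at 10.4 to 23.1 FPKM and CDX2 at 3.51 to 5.09 FPKM, while KRT20 (0.277 to 1.23 FPKM) and VIL1 (0 to 0.054 FPKM) were low or absent. The epithelial keratins were lower in every hairpin than in both controls. KRT8 had 1071 and 1072 FPKM in controls and 792, 583 and 670 FPKM in the hairpins, and KRT18 had 639 and 634 FPKM in controls and 397, 216 and 303 FPKM in the hairpins. The part of this difference in the results that follow was not tested. CD3E and CDH5, defining markers of T cells and endothelium, were at 0 in every sample. Of the other markers that a pure culture should lack, PTPRC stayed at or below 0.00526 FPKM and PECAM1 at or below 0.0107 FPKM. ALB was at 0.0368 to 0.200 FPKM. COL1A1 was at 3.10 to 4.21 FPKM while the other fibroblast markers COL1A2 and DCN stayed at or below 0.0186 FPKM.

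The 32 tested members had at least 1 FPKM in every sample, so none entered the test through 1 group alone. Their levels spanned a wide range. IER3, which encodes a regulator of survival and stress responses, was the most abundant at 294 to 330 FPKM, followed by AREG at 225 to 287 FPKM. In all, 11 members had a mean of at least 50 FPKM over the 5 samples. FOS, the gene for c-Fos, stood near the lower end at 2.45 to 4.52 FPKM, and EGR2, EGR3, EGR4, NR4A3 and PTGS2 stayed below 1 FPKM throughout and were not tested.

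**Figure D1:**
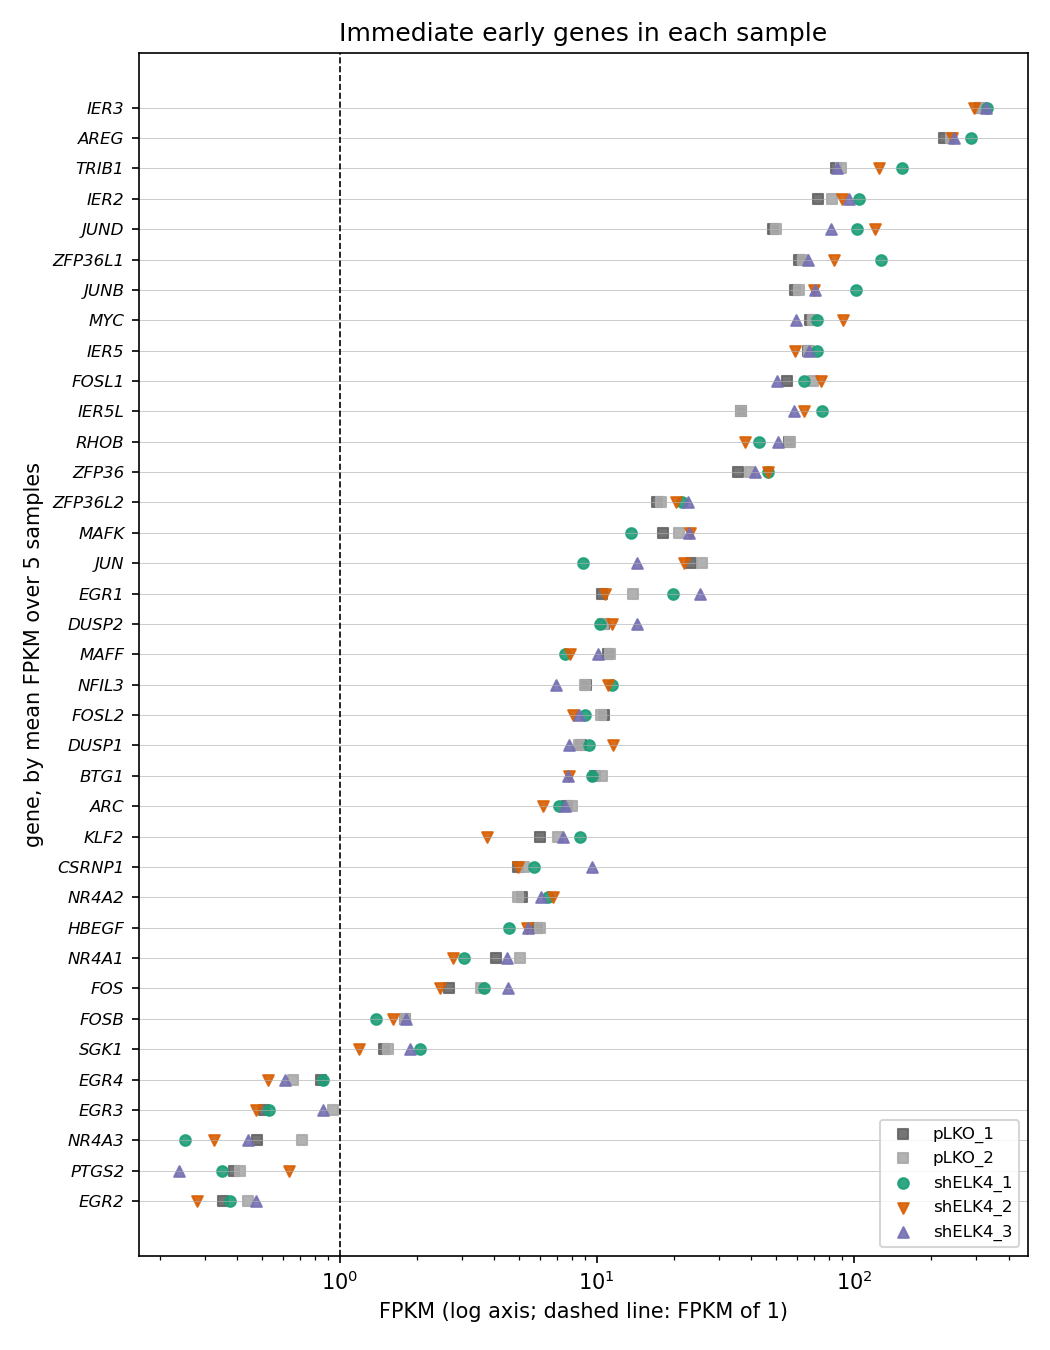
FPKM of each of the 37 immediate early genes in each sample, on a log axis, with genes ordered by their mean over the 5 samples, squares for the pLKO samples and round or triangular marks for the 3 hairpins. IER3 and AREG lie at the top, between 225 and 330 FPKM, and 5 genes lie left of the dashed line at 1 FPKM in every sample.

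No member passed an adjusted p under 0.05 in limma (0 of 32, against 0.167% of all tested genes), and none passed together with a fold change of at least 2 (0.121% of all tested genes). The study's own list of changed genes has JUND as higher after ELK4 knockdown, past these same limits. The limma fit on FPKM used here did not call it. The lowest adjusted p of a member was 0.0702, for IER5L. At an unadjusted p under 0.05, 9 members differed between the groups. JUND, IER2, IER5L, NR4A2, ZFP36 and ZFP36L2 were higher after knockdown, 6 of 32 or 18.8% against 8.08% of all tested genes. FOSL2, MAFF and RHOB were lower, 3 of 32 or 9.38% against 8.14% of all tested genes, which is near the background. Whether the higher share for the first 6 differs from the background was not tested. These counts rest on single libraries: without pLKO_1 the number of members at an unadjusted p under 0.05 was 2, without pLKO_2 it was 3 and without shELK4_3 it was 14. The share of all tested genes moved too, from 16.2% to 5.42% without pLKO_1, 5.32% without pLKO_2 and 19.2% without shELK4_3, and it was 18.3% without shELK4_1 (8 members) and 22.8% without shELK4_2 (11 members). With a limma fit that gives each group its own variance, JUND and IER5L passed, each with an adjusted p of 0.00761, 2 of 32 or 6.25% of members where 3.83% of all tested genes passed. With the replicate number as a block JUND was the 1 member that passed, at a limma adjusted p of 0.0490, among 0.204% of all tested genes.

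Counting sides alone, all 3 knockdown samples lay above both controls for 9 members (28.1%, against 19.1% of all tested genes) and below both for 7 members (21.9%, against 21% of all tested genes). The first 9 were JUNB, JUND, IER2, IER5L, NR4A2, ZFP36, ZFP36L1, ZFP36L2 and AREG. The other 7 were FOSL2, JUN, BTG1, ARC, MAFF, RHOB and HBEGF. In the remaining 16 members the groups overlapped. Over all 32, 20 log2 fold changes were above 0 and 12 below, with a median of 0.09 beside −0.01 for all tested genes. The members' median was 0.05 without shELK4_3.

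The JUN proteins can pair with one another or with FOS proteins, and JUND is the member held at a steady level in many resting cells. JUND (GRCh38 chromosome 19, 18279694 to 18281622) had 48.4 and 49.6 FPKM in the pLKO samples and 103, 121 and 81.9 FPKM in shELK4_1, shELK4_2 and shELK4_3. Every hairpin was above both controls by a gap far wider than that between the controls, and shELK4_2, not shELK4_1, was the highest. The mean was 49.0 ± 0.903 FPKM (SD, n = 2) in controls and 102 ± 19.6 FPKM (SD, n = 3) after knockdown, 208% of control (log2 fold change 1.02, 95% interval 0.64 to 1.41, limma adjusted p = 0.0743). Over the alternative fits its log2 fold change ran from 0.89 to 1.17. In those that kept both controls its limma adjusted p ran from 0.00761 to 0.167, the latter without the FPKM limit.

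JUN (GRCh38 chromosome 1, 58776845 to 58784048), the gene for c-Jun, went the other way. It had 23.2 and 25.7 FPKM in the pLKO samples and 8.84, 22.0 and 14.4 FPKM in shELK4_1, shELK4_2 and shELK4_3. All hairpins were lower than both controls, but the hairpins differed widely among themselves, by 2.48 times from the lowest to the highest. In shELK4_2 JUN was at 89.7% of the control mean and in shELK4_1 at 36.1%. The log2 fold change over the 3 hairpins was −0.75 (95% interval −1.52 to 0.02, limma adjusted p = 0.319). It was −0.44 without shELK4_1 and −1.05 without shELK4_2. JUNB, which can oppose c-Jun at AP-1 sites, had 59.3 and 61.5 FPKM in controls and 102, 70.3 and 70.4 FPKM in the 3 knockdown samples. Only shELK4_1 stood well clear of the controls, and the log2 fold change was 0.39 (limma adjusted p = 0.326), or 0.22 without shELK4_1. Of the exonic bases of JUNB, 14.2% overlap HOOK2 on the other strand.

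Because FPKM is a level per length, the JUN family could be compared within a sample. The summed level of JUN, JUNB and JUND was 131 and 137 FPKM in the controls and 214, 213 and 167 FPKM in shELK4_1, shELK4_2 and shELK4_3, so every hairpin had a higher family total. JUND made up 37% and 36.3% of it in pLKO_1 and pLKO_2 and 48.1%, 56.8% and 49.1% in the hairpins. For JUN the share was 17.7% and 18.8% in controls against 4.13%, 10.3% and 8.64% in the hairpins, with no overlap. These shares are of mRNA and describe 5 samples, with no test of their own.

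The FOS family showed no such separation. FOS had 2.66 and 3.55 FPKM in the pLKO samples and 3.65, 2.45 and 4.52 FPKM in the 3 knockdown samples. The lowest and the highest value both came from hairpins, and the log2 fold change of 0.13 had a 95% interval of −0.37 to 0.63 (limma adjusted p = 0.792). FOSL1, which encodes Fra-1 and is often the main FOS-family gene in carcinoma cells, made up 78.4% and 81.5% of the family sum in controls and 82.0%, 86.0% and 77.2% after knockdown. Its own level was 54.9 and 69.2 FPKM in controls and 63.8, 74.7 and 50.4 FPKM in the hairpins, which lay on both sides of the controls. FOSB was low, at 1.38 to 1.81 FPKM, and its groups overlapped. FOSL2, which encodes Fra-2, had 10.7 and 10.3 FPKM in controls and 8.97, 8.11 and 8.53 FPKM after knockdown. The 3 hairpins agreed within 1.11 times of one another and all lay below both controls (log2 fold change −0.27, 95% interval −0.49 to −0.06, unadjusted p = 0.021, limma adjusted p = 0.224).

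EGR1 is a zinc finger factor whose promoter carries the CArG boxes printed above, and it is a classic target of ternary complex factors. It had 10.5 and 13.9 FPKM in the pLKO samples and 19.8, 10.8 and 25.3 FPKM in shELK4_1, shELK4_2 and shELK4_3. A pair of hairpins lay above both controls and shELK4_2 lay between them, so the groups overlapped. The controls themselves differed by 0.37 on the log2 scale for EGR1, the widest control difference of any tested member. EGR2, with 1 CArG box in its window, had 0.353 and 0.440 FPKM in controls and 0.375, 0.279 and 0.475 FPKM in the hairpins. EGR3 had 0.509 and 0.938 FPKM in controls and 0.531, 0.472 and 0.860 FPKM in the hairpins. In all 3 genes shELK4_3 was the highest hairpin and shELK4_2 the lowest, though EGR2 and EGR3 were below the level tested. EGR4 ranged from 0.529 to 0.860 FPKM with overlapping groups.

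IER5L (GRCh38 chromosome 9, 129175552 to 129178261), a paralogue of IER5, had 36.3 and 36.5 FPKM in the pLKO samples and 75.1, 64.0 and 58.7 FPKM in shELK4_1, shELK4_2 and shELK4_3. The hairpins were all above both controls, and the lowest of them was at 161% of the control mean. The group means were 36.4 ± 0.122 FPKM (SD, n = 2) and 65.9 ± 8.36 FPKM (SD, n = 3), 181% of control (log2 fold change 0.83, 95% interval 0.55 to 1.12, limma adjusted p = 0.0702). Its log2 fold change over the alternative fits ran from 0.74 to 0.91. With both controls kept, its limma adjusted p ran from 0.00761 to 0.152, again highest without the FPKM limit. On GENCODE gene models 41.8% of the exonic bases of IER5L overlap IER5L-AS1 on the other strand, and whether the libraries kept strand is not given in the sources used here, so reads of the pair cannot be told apart. IER5 itself, which is linked to the heat shock response, had 66.4 and 66.9 FPKM in controls and 71.9, 59.0 and 67.1 FPKM in the hairpins. Its hairpins lay on both sides of the controls, and its log2 fold change was −0.02 (95% interval −0.27 to 0.24). Its sign turned with quantile normalization (0.08) and with correction for GC content and length (0.0002).

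IER2, which encodes a nuclear protein, had 72.8 and 82.3 FPKM in the pLKO samples and 105, 89.9 and 95.8 FPKM in the knockdown samples. Each hairpin was above both controls, by less than in IER5L (log2 fold change 0.32, unadjusted p = 0.0207, limma adjusted p = 0.223). Of its exonic bases 52.2% overlap antisense genes, so the same limit holds. IER3 had 309 and 314 FPKM in controls and 330, 294 and 326 FPKM in the hairpins, which lay on both sides. As the most abundant member it was also among the least variable (log2 fold change 0.02, 95% interval −0.19 to 0.23), and 38.9% of its exonic bases overlap other genes.

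The NR4A genes encode orphan nuclear receptors, and their members differed in direction. NR4A1 had 4.05 and 5.05 FPKM in the pLKO samples and 3.05, 2.76 and 4.47 FPKM in the hairpins. Its value in shELK4_3 lay between the controls, so the groups overlapped, and its log2 fold change was −0.34 (limma adjusted p = 0.400), or −0.21 without pLKO_2. NR4A2 had 5.12 and 4.95 FPKM in controls and 6.45, 6.78 and 6.08 FPKM after knockdown. All 3 hairpins were above both controls and close together (log2 fold change 0.30, unadjusted p = 0.0156, limma adjusted p = 0.205). NR4A3 had 0.479 and 0.712 FPKM in controls and 0.251, 0.325 and 0.442 FPKM in the hairpins, all lower, at a level that was not tested. The summed level of the family was 9.64 and 10.7 FPKM in controls and 9.75, 9.87 and 11 FPKM in the hairpins, and the share of NR4A1 in it was 42.0% and 47.1% in controls against 31.3%, 28.0% and 40.7%.

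ZFP36 and its paralogues encode zinc finger proteins that bind AU-rich elements and speed the decay of mRNAs, those of other immediate early genes included. All 3 paralogues lay above both controls in every hairpin. ZFP36 had 35.4 and 39.3 FPKM in controls and 46.3, 46.3 and 41.1 FPKM in the hairpins, and ZFP36L2 had 17.2 and 17.8 FPKM in controls and 21.4, 20.4 and 22.7 FPKM in the hairpins. Both differences were small and even (log2 fold changes 0.25 and 0.28, limma adjusted p = 0.296 and 0.212). ZFP36L1 was uneven, with 61.3 and 63.2 FPKM in controls and 127, 83.7 and 66.1 FPKM in shELK4_1, shELK4_2 and shELK4_3. In shELK4_1 it was at 204% of the control mean and in shELK4_3 at 106%, and the log2 fold change of 0.51 had a 95% interval that includes 0 (limma adjusted p = 0.366), and it was 0.25 without shELK4_1. Of the exonic bases of ZFP36L2, 22.4% overlap a gene on the other strand, so reads of that pair cannot be told apart. The family sum was 114 and 120 FPKM in controls and 195, 150 and 130 FPKM after knockdown.

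Among the regulators of signalling, TRIB1, a pseudokinase that directs proteins to degradation, had 85.5 and 89.0 FPKM in the pLKO samples and 154, 126 and 85.7 FPKM in the hairpins. The first pair of hairpins stood high while shELK4_3 lay between the controls (log2 fold change 0.44, limma adjusted p = 0.392), and the log2 fold change was 0.25 without shELK4_1 and 0.67 without shELK4_3. DUSP1, a phosphatase that switches off MAP kinases, had 7.80 to 11.5 FPKM over the hairpins beside 8.69 and 8.56 FPKM in controls. DUSP2, a nuclear phosphatase of the same kind, had 10.7 and 10.6 FPKM in controls and 10.3, 11.5 and 14.3 FPKM in the hairpins. Neither phosphatase had all hairpins on one side. RHOB, a small GTPase of endosomes, had 56.0 and 56.5 FPKM in controls and 42.8, 37.8 and 50.9 FPKM after knockdown. It was lower in every hairpin, least in shELK4_3 (log2 fold change −0.36, 95% interval −0.68 to −0.05, unadjusted p = 0.0303, limma adjusted p = 0.255). SGK1, a kinase of the serum and glucocorticoid response, was low at 1.20 to 2.06 FPKM, and its groups overlapped.

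Of the other transcription factors, MAFF was the clearest. It encodes a small MAF protein without an activation domain of its own and had 11.1 and 11.2 FPKM in controls and 7.53, 7.87 and 10.1 FPKM in the hairpins. All hairpins were below both controls, 2 of them clearly so (log2 fold change −0.37, unadjusted p = 0.0298, limma adjusted p = 0.255). Its paralogue MAFK had 18.1 and 20.8 FPKM in controls and 13.6, 23.2 and 22.9 FPKM in the hairpins. One hairpin was below and a pair above both controls, which left a log2 fold change of −0.00 (95% interval −0.55 to 0.55) whose sign turned with median-of-ratios scaling (0.0051) and quantile normalization (0.03). Of the exonic bases of MAFK, 18.1% overlap TMEM184A on the other strand. MYC had 67.8 and 69.5 FPKM in controls and 72.1, 90.4 and 59.4 FPKM in the hairpins, on both sides of the controls.

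KLF2, a zinc finger factor known from endothelium and T cells, had 6 and 7.07 FPKM in controls and 8.58, 3.73 and 7.38 FPKM in shELK4_1, shELK4_2 and shELK4_3. The hairpins differed by 2.30 times, with shELK4_2 alone below the controls. CSRNP1, a nuclear protein induced by AXIN1, had 4.93 and 5.21 FPKM in controls and 5.69, 4.94 and 9.62 FPKM in the hairpins, so shELK4_3 alone was far above (190% of the control mean). NFIL3, a bZIP repressor that shapes circadian and immune transcription, had 11.4 and 11 FPKM in shELK4_1 and shELK4_2, 6.96 FPKM in shELK4_3 and 9.06 and 8.97 FPKM in controls. In none of these genes did the log2 fold change of the group leave the range from −0.05 to 0.30, and limma adjusted p was at least 0.563. For CSRNP1 the log2 fold change was 0.30, and 0.05 without shELK4_3.

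The growth factor genes AREG and HBEGF encode ligands of the EGF receptor. AREG had 225 and 240 FPKM in controls and 287, 242 and 246 FPKM in the hairpins. Only shELK4_1 was well clear of the higher control, and the log2 fold change was 0.15 (limma adjusted p = 0.511), or 0.07 without shELK4_1. HBEGF had 5.88 and 6.04 FPKM in controls and 4.57, 5.38 and 5.40 FPKM in the hairpins, all lower (log2 fold change −0.19, limma adjusted p = 0.411, and −0.12 without shELK4_1). BTG1, an antiproliferative partner of the deadenylation machinery, had 9.87 and 10.5 FPKM in controls and 9.57, 7.83 and 7.75 FPKM in the hairpins. ARC, known from synapses, had 7.68 and 8.01 FPKM in controls and 7.13, 6.19 and 7.50 FPKM in the hairpins. Both were lower in all hairpins by little (log2 fold changes −0.26 and −0.16, the latter −0.09 without shELK4_2), and 16% of the exonic bases of BTG1 overlap neighbouring transcripts. PTGS2, which encodes the prostaglandin synthase COX-2, was at 0.238 to 0.633 FPKM and was not tested.

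Each hairpin was then set beside the mean of both controls at a difference of at least 0.5 on the log2(FPKM + 1) scale. In shELK4_1, 6 of 32 members lay above by that much, against 4.59% of all tested genes (JUNB, JUND, EGR1, IER5L, ZFP36L1 and TRIB1), and JUN and MAFF lay below, against 2.98%. In shELK4_2, JUND, IER5L and TRIB1 lay above, against 3.17%, and NR4A1, RHOB and KLF2 lay below, against 5.73%. In shELK4_3, JUND, EGR1, IER5L and CSRNP1 lay above, against 3.95%, and JUN alone lay below, against 3.72%. JUND and IER5L were thus the 2 members past this limit in all 3 hairpins, and no member was past it downwards in all 3. The share of all tested genes past it in all 3 hairpins was not counted. The hairpins share their controls, so these lists are given side by side without a test of their overlap. At any size of difference, 20, 16 and 19 of 32 members lay above both controls in shELK4_1, shELK4_2 and shELK4_3, against 41.2%, 40.8% and 45.5% of all tested genes. Below both controls lay 11, 14 and 11 members, against 44.7%, 47.3% and 41.9% of all tested genes.

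Whether the members moved together was read from the order of the 3 hairpins, which does not involve the controls. All 6 possible orders occurred among the 32 members, the fullest holding 8 of them. Highest of the 3 was shELK4_1 for 13 members, shELK4_2 for 8 and shELK4_3 for 11, against 29.8%, 32% and 38.1% of all tested genes. Lowest was shELK4_1 for 6 members, shELK4_2 for 15 and shELK4_3 for 11, against 31.9%, 39.9% and 28.2% of all tested genes. The 15 became 13 with median-of-ratios scaling or quantile normalization and 12 with correction for GC content and length. The 13 members highest in shELK4_1 stayed at 13 under each of these. The shares of all tested genes under these settings were not counted. FOS, EGR1, NR4A1, ZFP36L2, ARC, RHOB and CSRNP1 shared the order shELK4_3, shELK4_1, shELK4_2 from high to low, which 22.2% of all tested genes had. FOSL1, JUND, NR4A2, DUSP1, MYC and ZFP36 shared the order shELK4_2, shELK4_1, shELK4_3 (16% of all tested genes), though ZFP36 differed between its upper pair by less than the digits printed. Other orders also rest on small differences, such as those of JUNB (70.3 and 70.35 FPKM), HBEGF (5.38 and 5.40 FPKM) and BTG1 (7.83 and 7.75 FPKM). JUN had only MAFK beside it in its order, and the upper pair of MAFK was close (23.2 and 22.9 FPKM). The families were therefore split among orders, with JUN, JUNB and JUND in 3 different ones and FOS, FOSB, FOSL1 and FOSL2 in 4.

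The members varied more among hairpins than a typical tested gene. The SD of log2(FPKM + 1) over the 3 hairpins had a median of 0.241 for the members and 0.141 for all tested genes, and 22 of the 32 members were above the latter value. Between the 2 controls the median absolute log2 difference was 0.0474 for the members beside 0.0631 for all tested genes. JUN (SD 0.612), EGR1 (0.593) and KLF2 (0.540) varied most, and FOSL2 (0.0651), NR4A2 (0.0687) and ZFP36L2 (0.0755) least. With 1 sample per hairpin, an effect of the hairpin and variation between cultures cannot be told apart.

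The members are richer in GC than most genes, with a median transcript GC content of 56.7% on GENCODE models beside 48.8% for all tested genes. JUND (69.9%) and IER5L (65.0%) are among the 7 members in the highest of 10 bins of tested genes by GC content (62.3% to 76%), and 5 of these 7 had log2 fold changes above 0. The median log2 fold change of all 1047 genes in that bin was 0.02, with 0.04, −0.04 and 0.06 in shELK4_1, shELK4_2 and shELK4_3. After correction of each sample for GC content and length the log2 fold change was 0.97 for JUND (limma adjusted p = 0.109) and 0.81 for IER5L (limma adjusted p = 0.0732).

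The genes around the members were read from 4 lists. Their counts at an unadjusted p under 0.05 stand beside 8.08% of all tested genes higher and 8.14% lower. Of 17 factors of the SRF and ERK pathway, all tested, ELK4 alone passed an adjusted p under 0.05 in limma, 2 (ELK4 and MAP2K1) were lower and none higher at an unadjusted p under 0.05, and the median log2 fold change was −0.03 beside −0.01 for all tested genes. SRF itself had 16.0 and 16.8 FPKM in controls and 15.0, 17.1 and 15.8 FPKM in the hairpins (log2 fold change −0.03, limma adjusted p = 0.891). ELK1, a sister ternary complex factor, had 18.7 and 18.9 FPKM in controls and 16.8, 21.0 and 23.7 FPKM in the hairpins, on both sides. ELK3, the remaining sister factor, had 27.8 and 28.0 FPKM in controls and 26.7, 8.57 and 20.1 FPKM in the hairpins. All hairpins were below for ELK3, shELK4_2 by far the most (log2 fold change −0.70, limma adjusted p = 0.432). MAPK8, the gene for the JNK1 kinase that activates c-Jun, had 11.8 FPKM in both controls and 6, 10.3 and 9.67 FPKM in the hairpins (log2 fold change −0.44, limma adjusted p = 0.348).

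Of the bZIP partners of FOS and JUN, 8 of 11 were tested, none passed an adjusted p under 0.05, none was higher and 2 (ATF3 and BATF3) were lower at an unadjusted p under 0.05, and the median was −0.11. ATF3, a stress-induced bZIP factor, had 16.1 FPKM in both controls and 5.56, 12.4 and 10.7 FPKM in shELK4_1, shELK4_2 and shELK4_3. It was below the controls in every hairpin and lowest in shELK4_1, as JUN was (log2 fold change −0.76, unadjusted p = 0.0355, limma adjusted p = 0.272). BATF3 had 2.70 and 3.14 FPKM in controls and 1.22, 1.69 and 2.08 FPKM in the hairpins, also all below (log2 fold change −0.57, limma adjusted p = 0.165). MAFG, a small MAF gene like MAFF and MAFK, had a log2 fold change of −0.25 (limma adjusted p = 0.364).

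Of 38 other early response genes found, 36 were tested, none passed, 5 were higher (KLF4, KLF10, GADD45A, PHLDA1 and SPRY4) and 3 lower (ATF3, GADD45B and PLK2) at an unadjusted p under 0.05, and the median was −0.02. The 3 lower of 36 are near the background of 8.14%. KLF4, a zinc finger factor of epithelial differentiation, had 9.67 and 10.6 FPKM in controls and 23.3, 15.0 and 16.2 FPKM in the hairpins. Every hairpin was above both controls (log2 fold change 0.76, 95% interval 0.32 to 1.20, limma adjusted p = 0.138). CYR61, a matricellular target of SRF and YAP, had 13.7 and 16.2 FPKM in controls and 3.81, 20.3 and 9.60 FPKM in the hairpins. Its hairpins lay on both sides of the controls and stood in the same order as those of JUN. Of 15 factors that act on AU-rich mRNAs, all tested, none passed, 1 (TIA1) was higher and none lower at an unadjusted p under 0.05, and the median was −0.0005. The largest differences there were small, with log2 fold changes of 0.27 for TIA1, −0.24 for DCP2 and −0.16 for CNOT7. In bulk RNA, fewer cells that express a gene and less RNA of it per cell cannot be told apart, and this holds for every value above.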

How the data were processed

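The authors extracted RNA with TRIzol, selected poly(A) RNA and sequenced it on an Illumina HiSeq instrument. They deposited FPKM values per gene, calculated by Cufflinks and scaled to the mapped reads of each sample. The submitters' processing notes name Trimmomatic 0.36, HISAT2 2.0.5, Cufflinks 2.2.1 and HTSeq 0.9.1. Genome build, annotation and strandedness are not given in the sources used here. Samples were grouped by their titles, and every sample was used.

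Of 20030 entries, 4 with repeated names were dropped and 27 names that had become dates were kept as they stood. Genes with at least 1 FPKM in at least 2 samples (10780) entered limma 3.58.1 in R 4.3.3 as log2(FPKM + 1), in a model of knockdown against vector with a trended empirical Bayes step and Benjamini-Hochberg adjustment over all tested genes. The pseudocount understates changes of low genes. On simulated data with known changes the fit was tested first. FPKM carry no counts, so no counting interval is given. Relative depth was read from the steps between values below 0.03 FPKM.

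All 37 members and ELK4 were named, and in each further list the genes with an adjusted p under 0.05 and the 3 with the largest absolute log2 fold change. SRF, ELK1, the genes named by their order or by a count, and MAP2K1 were chosen after their values were seen. Members and lists were chosen with earlier results of these data known. GENCODE release 44 transcripts, found for 97.1% of tested genes, gave GC content, length and exon overlap, and RefSeq windows on GRCh38.p14 gave promoters. The alternatives were a pseudocount of 0.1, no FPKM limit, median-of-ratios scaling, quantile normalization, the replicate number as a block, a variance for each group and each sample left out. Correction for GC content and length, and a pseudocount of 0.1 without the FPKM limit, were chosen after seeing the data.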

Additional observations from a re-analysis of the deposited data

How the results depend on the processing

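Over 13 alternatives, 390 of 416 member log2 fold changes kept their direction and their side of an adjusted p of 0.05. Of the rest, 3 passed it newly and 23 turned sign, in 10 members near 0. No member passed in the main fit, so none could lose a pass, and none could gain one where no gene passed. The count of 390 thus speaks mainly of direction. Of all tested genes, 18 passed in limma. No gene passed without the FPKM limit, at either pseudocount (0 each), and 413 passed with a variance for each group. With 1 knockdown sample left out, 0 (without shELK4_1) to 95 (without shELK4_2) passed. Members passing were 0, against 1 with the replicate block and 2 with a variance for each group, and 1 in either with a fold change of at least 2. Members at an unadjusted p under 0.05 were 9, against 14 with a variance for each group. With 1 knockdown sample left out they were 8 (without shELK4_1) to 14 (without shELK4_3). The median member log2 fold change of 0.09 was 0.02 without the FPKM limit and 0.0201 with a pseudocount of 0.1 as well, with 37 members in place of 32. ELK4 was at −1.26 (adjusted p = 0.114) and −1.51 (adjusted p = 0.145) under these same settings, and at −1.34 to −1.18 with 1 sample left out. Sign turned with quantile normalization for IER5 (0.0818) and MAFK (0.0341), with median-of-ratios scaling for MAFK (0.0051) and with correction for GC content and length for IER5 (0.0002). With 1 sample left out, the ranges that crossed 0 were −0.03 to 0.31 for FOS, −0.15 to 0.18 for FOSL1, −0.0109 to 0.0722 for IER3, −0.0817 to 0.0584 for IER5, −0.0139 to 0.24 for DUSP1, −0.0675 to 0.23 for MYC, −0.13 to 0.24 for MAFK, −0.26 to 0.25 for KLF2, −0.0005 to 0.24 for SGK1 and −0.0341 to 0.29 for NFIL3. The cause of these changes was not tested.

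The groups share the replicate numbers 1 and 2, but these belong to separate samples. Deviations from the group mean of same-numbered samples correlated at 0.0776 for replicate 1 and 0.0226 for replicate 2 over 10780 genes. The deviations of 2 controls mirror each other, so these values are not separate checks, and low values cannot exclude a pairing. With the replicate block, which leaves shELK4_3 without a control of its number, 22 genes passed, JUND among them at 1.17 (adjusted p = 0.0490), ELK4 was at −1.19, and FOS (−0.0262) and IER3 (−0.0013) turned sign. Depth limits the 5 genes under 1 FPKM, for which no counting error can be given.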
